A study of Mus musculus with 6 samples.

Results

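The colony-stimulating factor (CSF) system was followed through 8 genes, 3 ligand genes (Csf1, Csf2 and Csf3) and 5 receptor genes (Csf1r, Csf2ra, Csf2rb, Csf2rb2 and Csf3r). They were found by gene symbol, and 8 of 8 were present among the 55335 mouse gene identifiers of the table. All 8 averaged 1 FPKM or more and so were among the 11270 genes tested. FPKM values count fragments relative to the length of the transcript and the size of the library. The cells were RAW264.7, an established mouse macrophage line labelled WT. Every library came from cells given 200 ng/ml lipopolysaccharide (LPS), the bacterial cell wall component sensed by TLR4, for 8 h. The LPS group (n = 3) had no other treatment. The LPS plus ultrasound group (n = 3) was also exposed to low-intensity ultrasound for 10 min (50 mW/cm², 1 MHz, 20% duty cycle, 1 kHz pulse repetition, 200 µs pulses). LPS-free cells were not analysed here, and no value below shows what LPS itself did to these genes. Whether the libraries of a group were separate cultures is not stated, and the p-values measure the spread between these libraries only.

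Colony-stimulating factors are secreted proteins that keep myeloid cells alive, drive their proliferation and set their mature state. CSF1 (M-CSF) binds CSF1R, a receptor tyrosine kinase on which most macrophages depend. CSF2 (GM-CSF) and CSF3 (G-CSF) are made by activated cells, macrophages among them, and their receptors signal through Janus kinases and STAT proteins. The GM-CSF receptor pairs a specific alpha chain, encoded by Csf2ra, with a common beta chain, encoded by Csf2rb. Mice carry a second beta chain gene, Csf2rb2, whose product serves interleukin-3. CSF3R is the G-CSF receptor and is best known on neutrophils and their precursors.

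With ultrasound, all 3 ligand genes and the receptor genes Csf2ra and Csf3r had lower mean levels, and Csf1r, Csf2rb and Csf2rb2 had higher ones. For Csf1, Csf3 and Csf2rb2 the difference of mean FPKM was smaller than the larger group SD. The differences were largest for Csf3 and Csf3r, at about the same size on the log2(FPKM + 1) scale. None of the 8 genes passed the threshold of the test across all genes (limma, adjusted p by Benjamini-Hochberg from 0.169 to 0.860), where 0.0177% of tested genes passed. At an unadjusted limma p below 0.05, 4 of the 8 were lower (Csf2, Csf3, Csf2ra and Csf3r) and 0 were higher, against 9.16% of all tested genes lower and 6.18% higher. In 3 of the 8 (Csf2, Csf2ra and Csf3r) every ultrasound library lay below every LPS library, against 13.4% of all tested genes. None lay wholly above, against 9.8%. The median log2 difference of the 8 was -0.22, beside -0.02 over all tested genes. The 8 genes were listed with earlier results of these data known, so these counts describe them and are no independent support.

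The titles number the libraries 1 to 3 in both groups and give no other link between libraries. Deviations from group means correlated at 0.18, 0.44 and 0.41 for same-numbered libraries 1, 2 and 3. They were therefore also read as pairs. The correlations come from the same values and are weak for pair 1, so the pairing is an assumption. By pair, 5 genes (Csf1, Csf2, Csf3, Csf2ra and Csf3r) were lower with ultrasound in 3 of 3 pairs, against 30.9% of all tested genes. Csf1r was higher in 3 of 3, against 24.3%. With the replicate number as a block in the fit, 0 of the 8 passed (limma, adjusted p by Benjamini-Hochberg from 0.0582 for Csf3 to 0.740 for Csf2rb2), against 0.115% of all tested genes. In a fit that weights each library by its spread, 1 of the 8, Csf3r, passed (limma, adjusted p by Benjamini-Hochberg = 0.0384), against 1.98% of all tested genes. That fit gave ultrasound library 1 a weight of 7.70 and the other libraries 0.362 to 1.2.

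**Figure D1:**
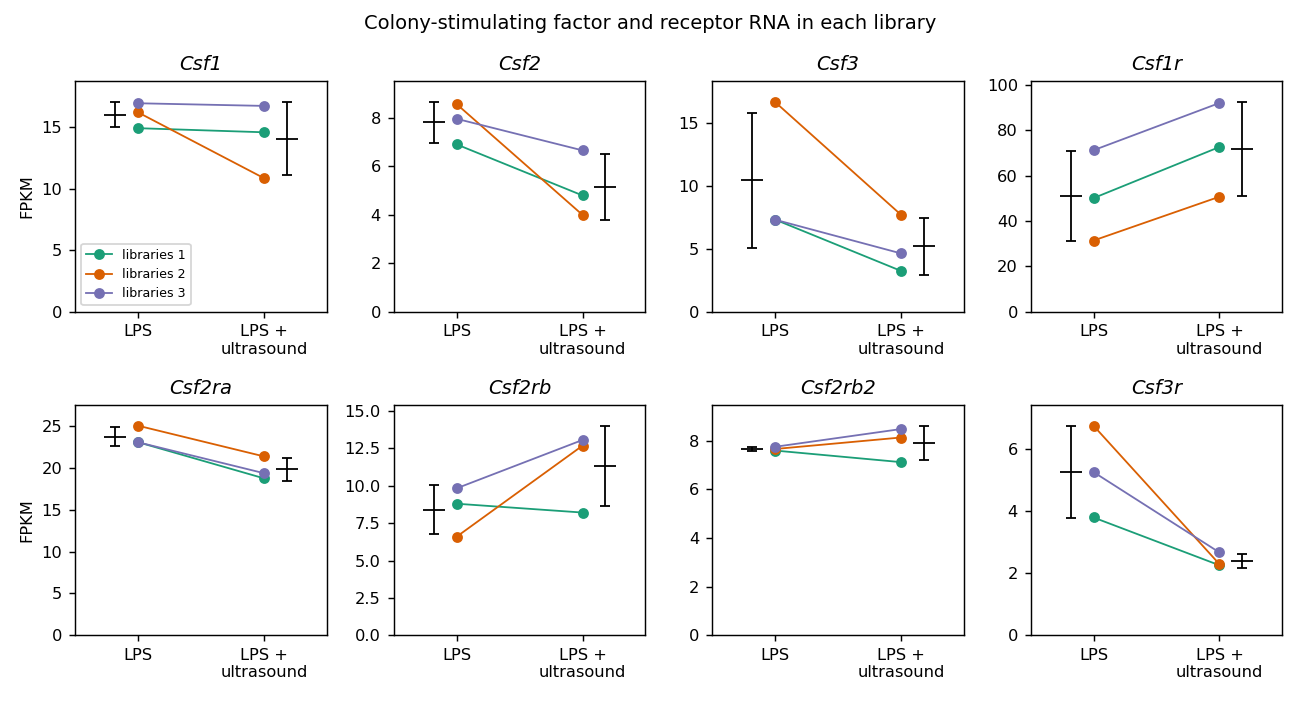
FPKM of each gene in the 6 libraries (vertical axes start at 0 and differ between panels), with lines joining libraries that share a number and black bars for the mean ± SD of each group (n = 3). Csf2, Csf2ra and Csf3r have separate groups, Csf1r lines all run upward, and Csf3 stands highest in library 2 of both groups.

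LPS library 2 stood apart from the others over the whole table. Principal component 1 of the tested genes held 41.9% of the variance and placed it at -28.8, with the other LPS libraries at -2.03 and -1.73 and the ultrasound libraries from 0.957 to 17.7. Member values that move by over 1.5 times without this library are also given without it. Leaving it out left 3 of the 8 genes lower at an unadjusted limma p below 0.05 (Csf2, Csf2ra and Csf3r), with 6.34% of all tested genes. Without both libraries numbered 2, the 3 were Csf3, Csf2ra and Csf3r, with 9.0% of all tested genes. Groups lay wholly lower without LPS library 2 for Csf2, Csf2ra and Csf3r, with 17.2% of all tested genes. In that setting 0 of the 8 lay wholly higher. Without both libraries numbered 2, Csf3 joined those 3 genes, with 28.5% of all tested genes wholly lower. Then 1 of the 8 lay wholly higher, where 2252 of all 11270 tested genes did. The FPKM sums ran from 278871 to 292200 per library.

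Csf2 (ENSMUSG00000018916), the GM-CSF gene, was lower in each ultrasound library than in any LPS library. It had 6.91, 8.57 and 7.96 FPKM in LPS libraries 1, 2 and 3, and 4.80, 4.0 and 6.66 FPKM in ultrasound libraries 1, 2 and 3. The groups did not overlap, with ultrasound library 3 just under LPS library 1. Means were 7.81 ± 0.842 FPKM (SD, n = 3) with LPS and 5.15 ± 1.37 FPKM (SD, n = 3) with ultrasound, a ratio of 0.659. The log2 difference was -0.54 ± 0.16 (standard error; limma, adjusted p by Benjamini-Hochberg = 0.235 unblocked and 0.106 blocked by replicate number), and it was lower in 3 of 3 pairs. Without both libraries numbered 2 it was -0.34. Csf2 has 1 annotated transcript, of 800 bases in GENCODE M21. Of these bases, 96 overlap Gm12223 on the opposite strand, a gene listed at no more than 0.0770 FPKM in any library.

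The RefSeq promoter window of Csf2 is shown because Csf2 was the ligand gene with separate groups. It covers the 250 bases before the RefSeq start (build GRCm38.p6, chr11:54249900-54250149, minus strand, written 5′ to 3′ along the gene), and capitals mark a match to a searched motif:
Csf2: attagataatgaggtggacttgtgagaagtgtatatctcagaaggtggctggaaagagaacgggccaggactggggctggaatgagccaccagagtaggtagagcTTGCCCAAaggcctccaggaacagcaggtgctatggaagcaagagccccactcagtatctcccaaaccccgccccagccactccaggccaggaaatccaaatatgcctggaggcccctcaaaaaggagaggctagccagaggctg
The GENCODE start of Csf2 lies 232 bases downstream of the RefSeq start, so this window is distal to it, and the bases just before the GENCODE start are not shown. Windows were searched on both strands for a kappaB motif (GGG and TTCC with any 3 bases between), CK-1 (GAGATTCC, a motif described in CSF promoters), AP-1 (TGANTCA), PU.1 (GAGGAAG) and C/EBP (TTGCNNAA). The Csf2 window held 1 match, to C/EBP, at bases 145 to 138 before the start, and 9.56% of the 32851 windows in the RefSeq table hold that motif. A match is a description of the letters and not a bound site.

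Csf3 (ENSMUSG00000038067), the G-CSF gene, had the widest spread of the 3 ligands. It had 7.34, 16.7 and 7.33 FPKM in LPS libraries 1, 2 and 3, and 3.25, 7.72 and 4.64 FPKM in ultrasound libraries 1, 2 and 3. Library 2 was the highest of each group, by 2.28-fold over the lowest with LPS and 2.38-fold with ultrasound, so the groups overlapped through ultrasound library 2 alone. Within each pair the ultrasound library was lower, by log2 differences of -0.97, -1.02 and -0.56. Means were 10.5 ± 5.41 FPKM (SD, n = 3) and 5.21 ± 2.29 FPKM (SD, n = 3), a ratio of 0.498. The log2 difference was -0.85 ± 0.36 (limma, adjusted p by Benjamini-Hochberg = 0.321). With the replicate block its standard error was 0.11 (limma, adjusted p by Benjamini-Hochberg = 0.0582). Without LPS library 2 the difference was -0.49, and without both libraries numbered 2 it was -0.77.

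Csf1 (ENSMUSG00000014599), the M-CSF gene, had the highest mean FPKM of the 3 ligands, although Csf3 exceeded it in LPS library 2, and its groups overlapped. It had 14.9, 16.2 and 17.0 FPKM in LPS libraries 1, 2 and 3, and 14.6, 10.9 and 16.7 FPKM in ultrasound libraries 1, 2 and 3. Pairs 1 and 3 differed by -0.03 and -0.02 on the log2 scale and pair 2 by -0.54, so the lower ultrasound mean rests on ultrasound library 2. Means were 16.0 ± 1.03 FPKM (SD, n = 3) and 14.1 ± 2.98 FPKM (SD, n = 3), with a log2 difference of -0.20 ± 0.15 (limma, adjusted p by Benjamini-Hochberg = 0.543). Without ultrasound library 2 it was -0.03, and without ultrasound library 3 it was -0.32.

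Csf1r (ENSMUSG00000024621), the macrophage receptor gene for CSF1, was the most abundant member and the one whose level was higher with ultrasound in every pair. It had 50.1, 31.4 and 71.1 FPKM in LPS libraries 1, 2 and 3, and 72.6, 50.7 and 92.0 FPKM in ultrasound libraries 1, 2 and 3. Both groups ran in the order library 2, library 1, library 3 from low to high, and they overlapped widely. Pair differences were 0.53, 0.68 and 0.37 on the log2 scale. Means were 50.9 ± 19.9 FPKM (SD, n = 3) and 71.7 ± 20.7 FPKM (SD, n = 3), a ratio of 1.41. The log2 difference was 0.52 ± 0.32 (limma, adjusted p by Benjamini-Hochberg = 0.455). With the block, which removes the shared order of the libraries, the standard error was 0.07 and the gene stayed above the threshold (limma, adjusted p by Benjamini-Hochberg = 0.0603). Leaving out LPS library 2 alone moved the difference to 0.22, and leaving out both libraries numbered 2 to 0.45. It was 0.80 without LPS library 3 and 0.33 without ultrasound library 3. In GENCODE M21, 873 of the 5774 exon bases of Csf1r overlap Hmgxb3 on the opposite strand. Hmgxb3 lay at 7.46 ± 0.532 and 6.69 ± 0.369 FPKM (SD, n = 3 per group), and whether strand was used in counting is not given in the sources used here.

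**Figure D2:**
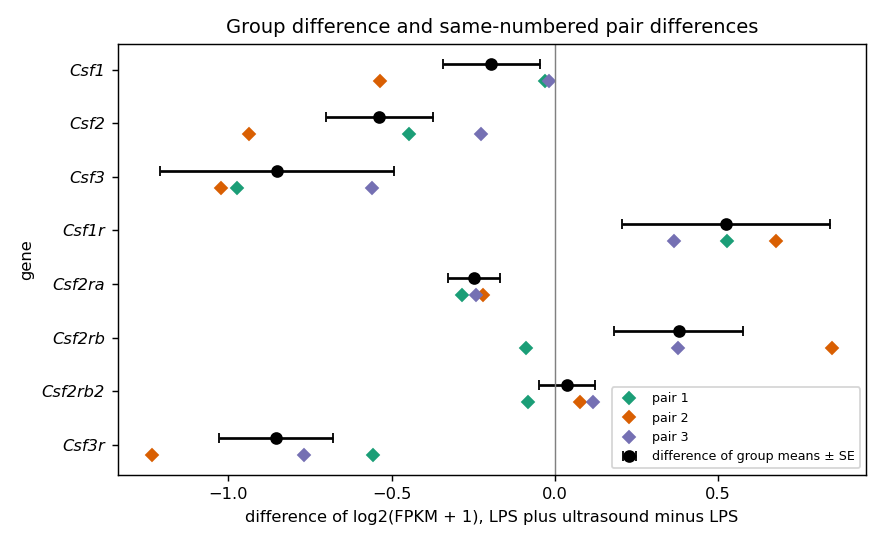
For each gene, the log2(FPKM + 1) of the ultrasound group less that of the LPS group (horizontal axis). Black points are group differences ± standard error from limma (n = 3 per group) and diamonds are the 3 same-numbered pairs. Csf1r diamonds lie from 0.37 to 0.68 while its standard error without pairing is 0.32, and Csf2ra diamonds lie from -0.29 to -0.22.

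Csf3r (ENSMUSG00000028859), the G-CSF receptor gene, had the lowest mean level and, without the block, the smallest limma p of the 8. With the block, Csf3 and Csf1r had a smaller limma p than Csf3r. It had 3.79, 6.74 and 5.25 FPKM in LPS libraries 1, 2 and 3, and 2.25, 2.29 and 2.67 FPKM in ultrasound libraries 1, 2 and 3. The 3 ultrasound values lay close together and below all LPS values, which spread 1.78-fold. Means were 5.26 ± 1.48 FPKM (SD, n = 3) and 2.40 ± 0.229 FPKM (SD, n = 3), so the LPS level was 2.19 times the ultrasound level. The log2 difference was -0.85 ± 0.17 (limma, adjusted p by Benjamini-Hochberg = 0.169 unblocked and 0.0662 blocked by replicate number). Without LPS library 2 it was -0.69, and without both libraries numbered 2 it was -0.66. The G-CSF ligand and receptor genes were both lower in 3 of 3 pairs. Neither passed the threshold in the unweighted fits. Neutrophil markers, which could accompany Csf3r, were near 0, and 0 of 7 reached a mean of 1 FPKM. Their summed level was 0.158 to 0.596 FPKM over the LPS libraries and 0.139 to 0.466 over the ultrasound libraries. S100a9 and Elane were at 0 in all 6. The part of these markers in the Csf3r values was not tested.

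Csf2ra (ENSMUSG00000059326), the alpha chain gene of the GM-CSF receptor, showed a small difference with little spread. It had 23.0, 25.0 and 23.0 FPKM in LPS libraries 1, 2 and 3, and 18.7, 21.3 and 19.3 FPKM in ultrasound libraries 1, 2 and 3. Library 2 was the highest of both groups, and every ultrasound value lay below every LPS value. Means were 23.7 ± 1.14 FPKM (SD, n = 3) and 19.8 ± 1.37 FPKM (SD, n = 3), a ratio of 0.836. The log2 difference was -0.25 ± 0.08 (limma, adjusted p by Benjamini-Hochberg = 0.248 unblocked and 0.0710 blocked by replicate number). Pair differences were -0.29, -0.22 and -0.24, the narrowest range among the members with 3 pairs in one direction, and the difference without LPS library 2 was -0.21.

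The promoter windows of Csf3r and Csf2ra are shown because these 2 receptor genes had separate groups. Both are the 250 bases before the RefSeq start, build GRCm38.p6, written 5′ to 3′ along the gene with motif matches in capitals. The Csf3r window is chr4:126024409-126024658 on the plus strand, and the Csf2ra window is chr19:61228419-61228668 on the minus strand:
Csf3r: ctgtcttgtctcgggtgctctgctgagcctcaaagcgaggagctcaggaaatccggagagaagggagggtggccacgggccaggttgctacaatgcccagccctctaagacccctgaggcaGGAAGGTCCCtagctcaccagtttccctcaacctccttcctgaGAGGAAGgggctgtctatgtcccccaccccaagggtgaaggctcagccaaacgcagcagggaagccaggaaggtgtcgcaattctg
Csf2ra: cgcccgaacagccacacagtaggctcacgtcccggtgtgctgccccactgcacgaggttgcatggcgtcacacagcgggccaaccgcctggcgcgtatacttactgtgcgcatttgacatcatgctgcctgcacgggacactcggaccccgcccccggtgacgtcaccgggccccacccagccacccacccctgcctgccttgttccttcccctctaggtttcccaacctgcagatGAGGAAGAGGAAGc
The Csf3r window held 1 kappaB match on the opposite strand, at bases 129 to 120 before the start, and 1 PU.1 match at bases 86 to 80. Of all windows, 4.65% hold the kappaB motif and 10.6% the PU.1 motif. The nearest GENCODE start of Csf3r lies 67 bases downstream of the RefSeq start. Its 4 GENCODE transcripts start from -109 to 13425 bases relative to the RefSeq start, where negative is upstream. The earliest of these starts falls inside the window, between the kappaB and the PU.1 match. The Csf2ra window held 2 overlapping PU.1 matches, at bases 14 to 8 and 8 to 2 before a start that RefSeq and GENCODE share. The earliest GENCODE start of Csf2ra lies at -11 on the same scale, within the first of these matches. PU.1 is the myeloid transcription factor encoded by Spi1. The Csf1 window held 1 kappaB match on the opposite strand, at bases 154 to 145, and the Csf2rb2 window 1 PU.1 match. RefSeq windows were matched for 5 of the 8 genes.

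Csf2rb (ENSMUSG00000071713) and Csf2rb2 (ENSMUSG00000071714) are the 2 beta chain genes, and neither had separate groups. Csf2rb had 8.81, 6.60 and 9.83 FPKM in LPS libraries 1, 2 and 3, and 8.21, 12.7 and 13.1 FPKM in ultrasound libraries 1, 2 and 3. Ultrasound libraries 2 and 3 lay above all LPS libraries, and ultrasound library 1 lay among them. Means were 8.41 ± 1.65 FPKM (SD, n = 3) and 11.3 ± 2.70 FPKM (SD, n = 3), with a log2 difference of 0.38 ± 0.20 (limma, adjusted p by Benjamini-Hochberg = 0.401 unblocked and 0.260 blocked by replicate number). It was higher in 2 of 3 pairs, 0.23 without LPS library 2, 0.58 without ultrasound library 1, 0.14 without both libraries numbered 2 and 0.01 with sample weights.

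Csf2rb2 was the steadiest member. It had 7.59, 7.66 and 7.75 FPKM in LPS libraries 1, 2 and 3, a 1.02-fold spread, and 7.12, 8.13 and 8.48 FPKM in ultrasound libraries 1, 2 and 3. The LPS values lay within the range of the ultrasound values. Means were 7.67 ± 0.0775 FPKM (SD, n = 3) and 7.91 ± 0.706 FPKM (SD, n = 3), a difference smaller than the spread with ultrasound (log2 difference 0.04 ± 0.09, limma, adjusted p by Benjamini-Hochberg = 0.860). Its sign was not stable, at -0.01 without ultrasound library 3 and 0.10 without ultrasound library 1.

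The 2 beta chain genes are near-identical copies, which bears on how far their values can be separated. In GENCODE M21, 95.2% of 2631 aligned coding bases are identical, and the longest identical coding run is 242 bases. Of all 100-base windows of the Csf2rb2 transcript, 7.2% occur unchanged in the Csf2rb transcript, and 3.59% of 150-base windows do. The 60 aligned coding bases that differ most are shown, with the 13 differing bases in capitals, since reads over such stretches can be told apart and reads within identical runs cannot. They are coding bases 304 to 363 of Csf2rb and 307 to 366 of Csf2rb2, counted from the start codon:
Csf2rb: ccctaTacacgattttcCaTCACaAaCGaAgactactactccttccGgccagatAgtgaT
Csf2rb2: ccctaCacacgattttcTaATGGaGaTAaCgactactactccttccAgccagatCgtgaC
How the authors divided reads that fit both genes is not given in the sources used here, so the sum was also taken. It was 16.4, 14.3 and 17.6 FPKM with LPS and 15.3, 20.8 and 21.5 FPKM with ultrasound, in library order. Csf2rb2 made up 46.3%, 53.7% and 44.1% of the sum with LPS and 46.4%, 39.1% and 39.3% with ultrasound. The mean share was 48.0% ± 5.05 (SD, n = 3) and 41.6% ± 4.17 (SD, n = 3), and the groups overlapped (exact two-sided permutation test, p = 0.3, where 3 against 3 allows no p below 0.1). The difference of -6.42 percentage points was -3.58 without LPS library 2 and -2.30 without both libraries numbered 2.

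**Figure D3:**
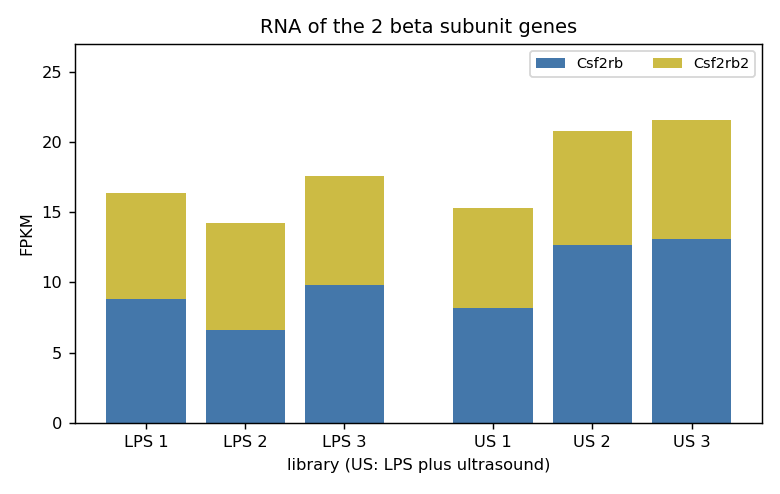
FPKM of Csf2rb (blue) and Csf2rb2 (yellow) stacked for each library, with the vertical axis from 0. Csf2rb2 stays between 7.12 and 8.48 FPKM in all 6 libraries while Csf2rb runs from 6.60 to 13.1, so the sums of 20.8 and 21.5 in ultrasound libraries 2 and 3 follow Csf2rb.

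On the per-length scale of FPKM the order of levels with LPS was Csf1r, Csf2ra, Csf1, Csf3, Csf2rb, Csf2, Csf2rb2 and Csf3r. Csf1r, Csf2ra and Csf1 had separate ranges there, and Csf3r lay below Csf2rb2 in every LPS library but above Csf2rb in LPS library 2. The neighbours from Csf1 down to Csf2rb2 overlapped, so their order is not resolved. With ultrasound the order was Csf1r, Csf2ra, Csf1, Csf2rb, Csf2rb2, Csf3, Csf2 and Csf3r. The members with the 3 highest means and the lowest mean were the same as with LPS, and the neighbours from Csf1 to Csf2 again overlapped. Among all tested genes the mean level of Csf1r stood at percentile 93.1, that of Csf2ra at 77.8 and that of Csf3r at 28.5.

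Most listed genes for related growth factors and their receptors were almost silent. Of 11 listed genes, 10 had a mean below 1 FPKM. Il34, which encodes the second ligand of CSF1R, averaged 0.122 FPKM. Il3 and Il3ra, the interleukin-3 ligand and alpha chain genes, were listed at 0 in all 6, and Il5 and Il5ra, whose products also use the common beta chain, had means of 0.0111 and 0.00530 FPKM. The 1 tested gene, the FLT3 ligand gene Flt3l, had 5.55 ± 0.716 and 5.11 ± 1.19 FPKM (SD, n = 3 per group; log2 difference -0.11 ± 0.15), and this difference ran from -0.27 to -0.02 when single libraries were left out.

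All 28 listed genes of proximal signalling from CSF receptors were tested, and 0 passed the threshold in either direction without the block. At an unadjusted limma p below 0.05, 6 were lower and 1 was higher, where 9.16% of all tested genes were lower and 6.18% higher. The median log2 difference of the 28 was 0.01, beside -0.02 over all tested genes. Stat5a, a transcription factor activated by GM-CSF and G-CSF receptors, lay at 51.0 ± 3.13 FPKM in the LPS group and 33.3 ± 2.69 FPKM in the ultrasound group (log2 difference -0.60 ± 0.09, limma, adjusted p by Benjamini-Hochberg = 0.132). With the replicate block it fell past the threshold (limma, adjusted p by Benjamini-Hochberg = 0.0474). The tyrosine kinase gene Fgr had 10.4 ± 2.78 and 5.34 ± 1.07 FPKM (-0.83 ± 0.21). In both genes every ultrasound library lay below every LPS library. That held for 6 of the 28, and 2 lay wholly above, beside 13.4% and 9.8% of all tested genes. Here and in the lists below, the named genes have the smallest p of their list, so separate groups are likely among them.

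Of 18 listed genes that respond to STAT5 and growth factors 16 were tested. With ultrasound 13 of them had a lower mean log2 level and 3 a higher one, where 6071 of all 11270 tested genes had a lower one, and the median log2 difference was -0.25. At an unadjusted limma p below 0.05, 5 were lower and 0 higher, beside 9.16% and 6.18% of all tested genes, and 0 passed over all genes without the block. Cish, a STAT5-induced inhibitor of cytokine receptor signalling, had 12.3, 11.1 and 13.0 FPKM in LPS libraries 1, 2 and 3, and 8.09, 8.70 and 7.90 FPKM in ultrasound libraries 1, 2 and 3. Its groups were separate, and LPS library 2 was the lowest of its group (log2 difference -0.51 ± 0.09 with it and -0.57 without it, limma, adjusted p by Benjamini-Hochberg = 0.136). The survival kinase gene Pim2 had 13.1 ± 2.57 and 7.25 ± 1.34 FPKM (-0.77 ± 0.16), and fell past the threshold with the block (limma, adjusted p by Benjamini-Hochberg = 0.178 without it and 0.0474 with it). Bcl2l1, which encodes the survival protein BCL-XL, had 18.7 ± 3.69 and 12.4 ± 1.24 FPKM (-0.54 ± 0.15). The median was -0.08 when LPS library 3 was left out and -0.06 when ultrasound library 2 was.

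Negative regulators of CSF receptors showed both directions. Of 15 listed genes 13 were tested, 3 were lower and 2 higher at an unadjusted limma p below 0.05 (all tested genes: 9.16% and 6.18%), 0 passed over all genes, and the median was -0.01. Cish belongs to this list as well. Socs3, which encodes the main feedback inhibitor of the G-CSF receptor, had 122 ± 5.34 and 88.2 ± 8.03 FPKM (-0.46 ± 0.09, limma, adjusted p by Benjamini-Hochberg = 0.146). Sh2b3, the gene for the adaptor LNK, which restrains JAK signalling, was higher in every ultrasound library, at 23.6 ± 2.76 and 32.2 ± 3.08 FPKM (0.43 ± 0.11, limma, adjusted p by Benjamini-Hochberg = 0.206).

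Transcription factors that act on the receptor genes gave 3 lower and 1 higher at an unadjusted limma p below 0.05 among 12 tested of 17 listed (all tested genes: 9.16% and 6.18%), with 0 past the threshold and a median of -0.03. Runx1, a partner of PU.1 at myeloid receptor genes, had 7.69, 8.15 and 5.93 FPKM in LPS libraries 1, 2 and 3, and 4.41, 4.54 and 4.59 FPKM in ultrasound libraries 1, 2 and 3. The ultrasound values lay close together and below all LPS values (-0.57 ± 0.12, limma, adjusted p by Benjamini-Hochberg = 0.172). Irf8, a macrophage and monocyte lineage factor gene, had 3.88 ± 1.21 and 1.96 ± 0.937 FPKM (-0.73 ± 0.26) with overlapping groups, and the ETS factor gene Elf1 had 14.9 ± 2.02 and 18.4 ± 0.712 FPKM (0.29 ± 0.11, or 0.19 without LPS library 2).

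Transcription factors that act on the ligand genes gave 3 lower and 0 higher at an unadjusted limma p below 0.05 among 19 tested of 21 listed (all tested genes: 9.16% and 6.18%), with 0 past the threshold and a median of -0.09. They were the NF-kB subunit genes Nfkb2 and Rel and the interferon regulatory factor gene Irf1. Nfkb2 had 119 ± 8.88 and 89.7 ± 11.6 FPKM (-0.41 ± 0.11, or -0.25 without both libraries numbered 2), Rel 52.1 ± 3.56 and 44.7 ± 1.14 FPKM (-0.22 ± 0.07), and Irf1 7.95 ± 0.676 and 5.76 ± 1.09 FPKM (-0.41 ± 0.13). Their groups were separate, and their adjusted limma p ran from 0.218 to 0.256 (Benjamini-Hochberg). Of the 19, 4 lay wholly lower with ultrasound and 0 wholly higher, beside 13.4% and 9.8% of all tested genes.

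CSF2 and CSF3 messages carry AU-rich elements that decay factors read. Of 20 listed decay and stability genes 19 were tested, 0 reached an unadjusted limma p below 0.05 in either direction (all tested genes: 9.16% lower and 6.18% higher), and the median was -0.03. Of the 19, 3 lay wholly lower with ultrasound and 0 wholly higher, beside 13.4% and 9.8% of all tested genes. The smallest p belonged to Tial1, an RNA-binding protein gene, at 6.89 ± 0.987 and 5.71 ± 0.234 FPKM (-0.23 ± 0.11, or -0.13 without LPS library 3), followed by the decay factor gene Khsrp at 33.6 ± 1.48 and 30.5 ± 1.08 FPKM (-0.14 ± 0.07). The deadenylase gene Cnot8 had 30.0 ± 2.20 and 33.1 ± 1.61 FPKM (0.14 ± 0.08). Groups were separate for Tial1 and Khsrp and overlapped for Cnot8.

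Among 7 tested of 8 listed genes for shedding and trafficking of CSF1 and CSF1R, 1 was lower and 1 higher at an unadjusted limma p below 0.05 (all tested genes: 9.16% and 6.18%), and 0 passed over all genes. Of the 7, 3 lay wholly lower with ultrasound and 1 wholly higher, beside 13.4% and 9.8% of all tested genes. Adam17, the protease gene whose product sheds CSF1R from the cell surface, had 36.7, 31.1 and 37.9 FPKM in LPS libraries 1, 2 and 3, and 39.5, 40.6 and 44.3 FPKM in ultrasound libraries 1, 2 and 3. Its groups were separate, with a log2 difference of 0.23 ± 0.09 (limma, adjusted p by Benjamini-Hochberg = 0.311). Rhbdf2, which encodes the iRhom partner that brings ADAM17 to the surface, had 42.9 ± 4.05 and 36.9 ± 1.40 FPKM (-0.21 ± 0.08). The integrin gene Itgb5 had 17.5 ± 0.601 and 14.0 ± 2.80 FPKM (-0.32 ± 0.14), and both genes had separate groups. Each of these differences rests in part on 1 library: Adam17 was 0.15 without LPS library 2, Rhbdf2 -0.14 without LPS library 3 and Itgb5 -0.15 without ultrasound library 2. The medians of the lists for proximal signalling, negative regulators, receptor gene factors, message decay and shedding all lay near 0 and changed sign when certain single libraries were left out.

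**Figure D4:**
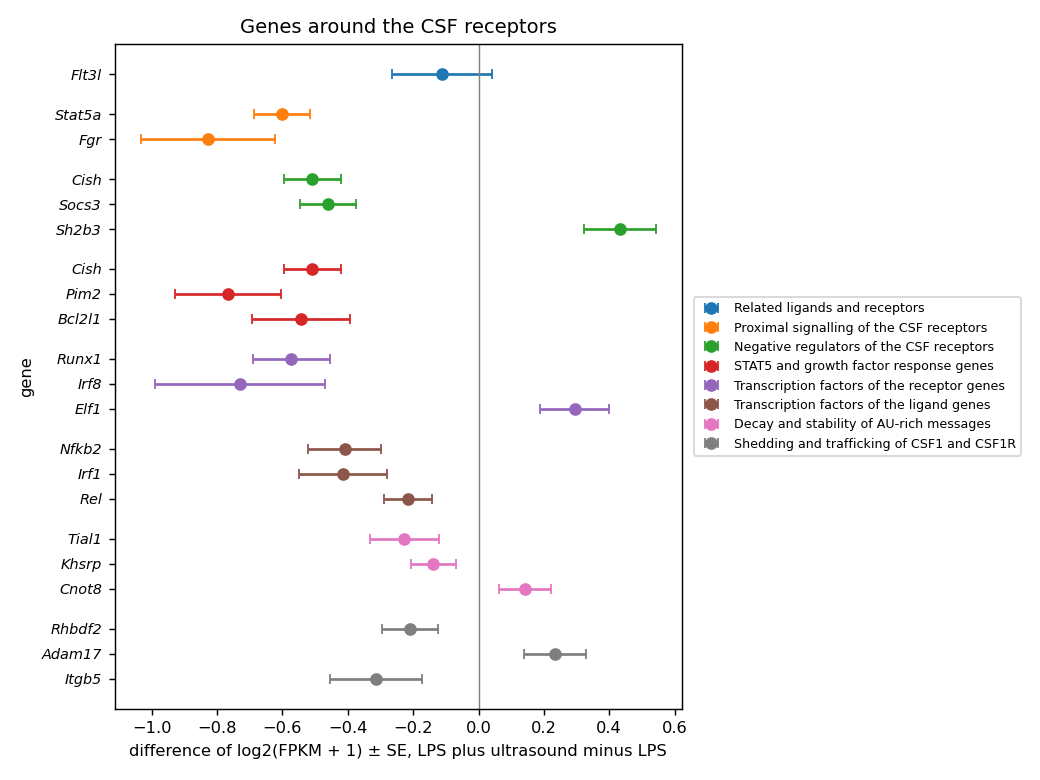
The log2(FPKM + 1) of the ultrasound group less that of the LPS group ± standard error (limma, n = 3 per group), for up to 3 genes with the smallest p in each of the 8 lists, coloured by list. Most points lie below 0, with Sh2b3 (0.43), Elf1 (0.29), Adam17 (0.23) and Cnot8 (0.14) above it, and because each list shows only its smallest p the plot does not show the lists as wholes.

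Csf3, Csf1r and Csf3r had log2 ranges of at least 1 over the 6 libraries, and for these the genes with the closest profiles were sought among tested genes that averaged 5 FPKM or more. Likeness is the root mean square difference of the centred log2(FPKM + 1) values over 6 libraries, so 0 is an identical profile. Closest to Csf3 were Phlda1 (0.12), Ms4a6c (0.164) and the chemokine gene Cxcl2 (0.177), each highest in LPS library 2. Closest to Csf1r were Emp3 (0.0869), Ccdc85b (0.0871) and Tmem51 (0.110), each lowest in LPS library 2. Closest to Csf3r were Malt1, a signalling scaffold gene (0.0672), Ticam2, which encodes the TLR4 adaptor TRAM (0.0792), and Fgr (0.113). Malt1 had 6.56, 11.6 and 8.09 FPKM in LPS libraries 1, 2 and 3, and 4.08, 3.85 and 5.06 FPKM in ultrasound libraries 1, 2 and 3, which is the Csf3r pattern of a high LPS library 2 and low ultrasound libraries. Fgr is also on the list of proximal signalling genes. All these genes were picked for their likeness, so the shared high or low libraries follow from that choice.

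Most macrophage markers were present. Of 9 such markers 7 averaged 1 FPKM or more, the highest being Fcer1g (902 ± 68.3 and 896 ± 63.5 FPKM) and Cd68 (645 ± 35.1 and 668 ± 30.3 FPKM), and their summed level was 2078 to 2267 FPKM over the LPS libraries and 2118 to 2245 over the ultrasound libraries. Mertk and Mrc1, markers of tissue and alternatively activated macrophages, reached at most 0.0163 and 0.0255 FPKM in any library. The other 5 of those 7 differed in direction (SD, n = 3 per group). Means were lower with ultrasound for Adgre1 (25.1 ± 7.98 and 15.5 ± 2.04 FPKM), Itgam (21.7 ± 9.49 and 12.5 ± 0.732 FPKM), Fcgr1 (51.1 ± 5.14 and 42.3 ± 3.28 FPKM) and Cd14 (302 ± 27.7 and 294 ± 12.5 FPKM), and higher for Lyz2 (223 ± 72.4 and 257 ± 99.6 FPKM). These markers were named after their values were seen, and their part in the results on the 8 genes was not tested. None of the T cell, fibroblast, endothelial or skeletal muscle markers reached a mean of 1 FPKM. Of 5 dendritic cell markers Itgax and Ccr7 did, and of 5 osteoclast markers Dcstamp and Acp5 did, and their part in the results was not tested. In bulk RNA, fewer cells with a gene switched on and less RNA per cell cannot be told apart.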

How the data were processed

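Poly(A)-selected RNA was sequenced in paired ends, per the labels' protocols. The authors deposited one table of FPKM values for 6 libraries, with the aligner, quantifier and strand setting not given in the sources used here. Labels disagree with the table: the extraction text describes rat muscle and the submitters' processing notes name mRatBN7.2, although the series' design text names RAW264.7 cells and all 55335 identifiers are mouse, so no gene coordinates were taken from the files. Table columns were matched to LPS and ultrasound libraries by initial and number.

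The 8 genes and the gene lists were chosen with earlier results of these data known. Genes averaging 1 FPKM or more were tested on log2(FPKM + 1) with limma 3.58.1 in R 4.3.3 (variance trend, robust moderation, two-sided, Benjamini-Hochberg over 11270 genes, threshold 0.05). Fold changes are on that scale, which understates the change of low genes. The script was tested on simulated data. Same-numbered libraries correlated at 0.18, 0.44 and 0.41 in their deviations from group means, and other pairings at -0.40 to 0.06, so the numbers were read as pairing and a fit with the replicate block was also made. Low values implied 25.3e+06 to 29.3e+06 fragments per library, but only 36.4% to 39.3% of values lay near a whole number of steps, so no counts were recovered and depth is unknown. Named genes are the 8 genes, up to 3 genes per list with the smallest limma p, the 3 closest profiles of genes with a log2 range of at least 1, and up to 2 highest markers per cell type; 1 gene that the rule names is not reported here, and the further markers of macrophages and neutrophils were named after their values were seen. Promoter windows come from RefSeq (GRCm38.p6) and transcripts from GENCODE M21. Alternatives changed the pseudocount, filter, scaling, moderation, weights, block and libraries.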

Additional observations from a re-analysis of the deposited data

How the results depend on the processing

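All 8 genes kept the sign of their log2 difference in every alternative run except Csf2rb2, which was -0.062 with sample weights and ran from -0.0095 to 0.10 when single libraries were left out. Of the 8 genes, 1 passed with sample weights (Csf3r) and 0 in the other alternatives. Over all tested genes 2 passed, against 1 with a mean of at least 5 FPKM, 5 with libraries scaled to the same FPKM sum, 223 with sample weights, 13 with the replicate block, 6 without both libraries numbered 2, and 2 to 8 when single libraries were left out. The cause was not tested. With the replicate block, Stat5a and Pim2 passed and no other named gene changed its call. With sample weights, Stat5a, Cish, Socs3, Pim2, Runx1, Malt1 and Ticam2 passed beside Csf3r. Csf3r has a mean under 5 FPKM and has no value under that filter. The alternatives for the counts at an unadjusted p and of separate groups were chosen after seeing the data. With 3 libraries per group and no counts, the low levels of Csf3r and Csf2 have no known depth.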
